A study of Mus musculus with 12 samples.

Results

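Nicotinamide mononucleotide (NMN) alone was set against lipopolysaccharide (LPS) alone in BV-2 cells, an immortalised mouse microglial line, by comparing the transcript features listed for 3 LPS and 3 NMN libraries of a series of 12. LPS is the cell wall component of Gram-negative bacteria, and NMN is a precursor from which cells make NAD. The other 6 libraries came from 3 untreated controls and 3 samples given LPS together with NMN. The comparison asks what separates the 2 single treatments, in a study of whether NMN protects microglia from LPS and from ferroptosis, a form of cell death driven by lipid peroxidation. The labels give no dose and no time. They do not say whether replicate libraries are from different cultures, so the p-values below measure only the spread between these libraries, which may be technical. The members were every gene or transcript event listed in all 3 libraries of 1 treatment and in none of the 3 of the other, called set apart below. There were 37 set-apart genes among 13595 genes listed in the 6 libraries, and 824 set-apart events among 104714 distinct events.

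LPS is bound by Toll-like receptor 4, which signals through MyD88 to NF-kB and cytokine genes and through TRIF to interferon regulatory factors and interferon-stimulated genes. NMN enters the NAD salvage pathway, in which Nampt makes it from nicotinamide and the Nmnat enzymes turn it into NAD, the substrate of sirtuins and PARP enzymes. Defence against ferroptosis rests on cystine uptake through the transporter Slc7a11, glutathione made from that cystine, and Gpx4, which uses glutathione to reduce lipid peroxides. One gene can give several transcripts by starting at another first exon, ending in another last exon, leaving out an exon, keeping an intron or moving the end of an exon.

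The deposited files are catalogues of such events, with neither counts of reads nor levels of expression nor depth. The 6 libraries listed from 12046 to 12235 genes each, and from 50784 to 54353 distinct events. Listing was patchy. Of the distinct events, 42.7% were in only 1 of the 6 libraries and 26.0% were in all 6, while 82.1% of genes were in all 6. The share of events that a pair of libraries had in common, out of those listed in either, ran from 53.5% to 54.6% for the 9 pairs of an LPS with an NMN library, from 53.8% to 54.1% for the 3 LPS pairs and from 54.2% to 54.4% for the 3 NMN pairs. Libraries of 1 treatment were thus about as unlike each other as libraries of different treatments. The labels give the cell type as macroglia. Of 28 microglia and macrophage markers, 18 were listed in all 6 libraries, among them Aif1, Itgam, Csf1r, Cd68, Spi1, Trem2 and Tmem119, while P2ry12 was in none and Cx3cr1 in 3. Of 13 astrocyte markers, 2 were listed in all 6 libraries, Slc1a2 and Aldoc. Aqp4 and Aldh1l1 were listed in none, and Gfap in 3.

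The NMN libraries listed several inflammatory genes that no control library listed, as the LPS libraries did. Zbp1, which senses Z-form nucleic acids and can start cell death, and Il12b, the shared chain of the cytokines interleukin 12 and 23, each had 2 events in every LPS and every NMN library and 0 in every control library. Il36a, an interleukin-1 family cytokine, had 5, 4 and 4 events in the LPS libraries and 4, 4 and 3 in the NMN libraries, against 0 in every control library. Ifit3b, an interferon-induced gene, had 2, 2 and 2 events with LPS and 2, 3 and 2 with NMN, and 0 in every control library. Ntng2, a membrane-anchored relative of the netrins, had 16, 22 and 23 events with LPS, 15, 21 and 18 with NMN and 0 in every control library. Irf7, the interferon regulatory factor that amplifies the type I response, had 15, 16 and 16 events with LPS and 16, 16 and 15 with NMN, beside a control mean of 7.67 ± 1.15 (SD, n = 3). For these 6 genes the LPS and NMN ranges overlapped. Il12b, Il36a, Zbp1 and Ifit3b are known as genes that LPS or interferon induces, and the libraries labelled NMN listed them although that label names no LPS. Why they did was not tested. No value in the files checks which agent a library received. The groups are named below by their labels, and every difference between NMN and LPS rests on those labels.

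More features of each class were in all NMN and no LPS libraries than in all LPS and no NMN libraries, in small shares. In all NMN and no LPS libraries there were 21 genes, 0.154% of the genes listed, and in all LPS and no NMN libraries 16 genes, 0.118%. Of all events, 447 were set apart towards NMN, 0.427% of those listed, and 377 towards LPS, 0.36%. First exons numbered 131 (0.345%) against 124 (0.326%), and last exons 101 (0.37%) against 96 (0.352%). Skipped exons numbered 109 (0.583%) against 81 (0.433%), and alternative exon ends 86 (0.487%) against 71 (0.402%). Retained introns parted most, with 20 (0.651%) against 5 (0.163%). Presence in every library of one treatment with absence from the other is the rule by which these features were chosen, so the counts carry no test. Among the 11159 genes listed in all 6 libraries, 574 had at least 1 set-apart event, 5.14%. By class these were 210 genes with first exons (1.88%), 152 with last exons (1.36%), 164 with skipped exons (1.47%), 23 with retained introns (0.206%) and 86 with alternative exon ends (0.771%).

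The catalogues separate exact from approximate forms of an event, and single exons or introns from runs of several, and the lean towards NMN ran through most of these types. Single exons skipped in approximate form numbered 15 with NMN (0.57% of those listed) and 9 with LPS (0.342%), and runs of skipped exons 14 (0.489%) and 12 (0.419%), with 1 (0.205%) in each direction in approximate form. Exactly retained single introns numbered 17 (0.877%) with NMN and 4 (0.206%) with LPS, those in approximate form 2 (0.252%) and 1 (0.126%), and runs of retained introns 1 (0.41%) and 0. Alternative exon ends in exact form numbered 73 (0.492%) and 61 (0.411%), and in approximate form 13 (0.463%) and 10 (0.356%).

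**Figure D1:**
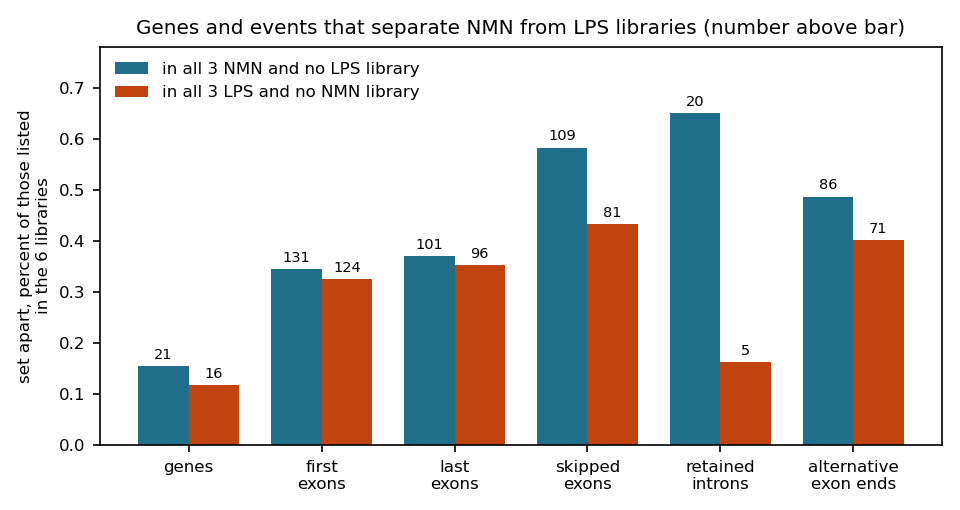
Share of the genes and of each class of events listed in the 6 LPS and NMN libraries (vertical axis, percent) that was in all 3 libraries of one treatment and none of the other, with the number above each bar; blue bars are NMN, orange bars LPS. Retained introns show the widest gap, 20 against 5.

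The sizes of whole catalogues did not separate the treatments. The NMN libraries listed 1068, 1217 and 1284 retained introns and the LPS libraries 1146, 1044 and 1120, which overlap. Their means were 1190 ± 111 and 1103 ± 53.0 (SD, n = 3), a difference with a two-sided exact permutation p of 0.3 and an adjusted p of 0.9. Skipped exons averaged 8615 ± 551 with NMN and 8489 ± 163 with LPS, with a two-sided exact permutation p of 0.8. Genes, first exons, last exons and alternative exon ends gave exact p-values of 0.9, 0.9, 0.7 and 0.5, and all 6 tests had an adjusted p of 0.9. With 3 libraries against 3 the smallest p possible was 0.1. The signs of the differences in genes, first exons, last exons and skipped exons turned when NMN replicate 3, the largest of the 6 catalogues, was left out, to -30.2, -173, -45.3 and -104 per library.

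Of the 21 genes listed with NMN and not with LPS, 2 were present in every library of the series except the LPS ones. Capn9, a digestive-tract calpain protease, had 2 events in each of the 9 libraries outside the LPS group and 0 in each LPS library. Cfap77, a protein of ciliary microtubules, had 2 events in each NMN and LPS+NMN library, 3, 2 and 2 in the control libraries, and 0 in each LPS library. Both are thus features that the LPS libraries alone lacked. Serpinb10, a serine protease inhibitor of blood cells, was listed in all 3 control and all 3 NMN libraries and in no library given LPS. Atg4a-ps, named as a pseudogene of an autophagy protease but annotated as protein-coding, was listed in the NMN libraries and in no other. The other genes were Col14a1, a fibril-associated collagen, Dixdc1, a Wnt pathway protein, Kcnk10, a potassium channel, Kif27, a kinesin, Magix, Myh14, a non-muscle myosin heavy chain, Pate2, Rcvrn, the photoreceptor calcium sensor recoverin, Scara5, a ferritin-binding scavenger receptor, Slc24a1, an exchanger of sodium for calcium, Slc35f3, Tbata, Ugt1a1, the enzyme that conjugates bilirubin, Unc93a2, Zfp618, Gm14322 and Gm9999. Of the 21, 8 were in all 3 control libraries and 2 in none.

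The 16 genes listed with LPS and not with NMN included the chemokine Ccl20. Ccl20, the ligand of the chemokine receptor Ccr6, had 2 events in each LPS library, 0 in each NMN and each control library, and 2, 0 and 2 in the LPS+NMN libraries. Ms4a4c, a membrane protein of the Ms4a family, and Majin, a meiotic telomere protein, were each listed in no control library and in 1 LPS+NMN library. Pdgfra, a platelet-derived growth factor receptor that also marks oligodendrocyte precursors, and Wnt10a, a Wnt ligand, were in no control and in 2 LPS+NMN libraries. Smim40 was listed with LPS and in no other library. Fbxo44, a substrate-binding subunit of a ubiquitin ligase, had 2 events in each of the 9 libraries outside the NMN group and 0 in each NMN library. Dpf3, a chromatin-remodelling subunit, was in all 3 control libraries. The others were Acer1, an alkaline ceramidase, Ak7, an adenylate kinase of cilia, Bdh1, the ketone body dehydrogenase of mitochondria, Dkk2, a Wnt regulator, Fbn1, fibrillin 1, Gfi1, a repressor of transcription in blood cells, Tas1r3, a taste receptor subunit, and Vipr1, a receptor of vasoactive intestinal peptide. Of the 16, 6 were in no control library and 2 in all 3.

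These 37 genes stood at the edge of detection in the catalogues. Every one had only first and last exons where it was listed, and no splicing event. All except Gm14322 had exactly 2 events in each library of the treatment that listed them, which is the fewest a listed gene had there. When a gene had to have 3 events to count as listed, no gene remained in either direction. The ends also moved from library to library. Of the 21 NMN genes, 3 had a first exon common to all 3 libraries and 3 a last exon common to all 3, and of the 16 LPS genes 4 and 4. In Capn9, for example, the 3 NMN libraries listed 3 different first exons.

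**Figure D2:**
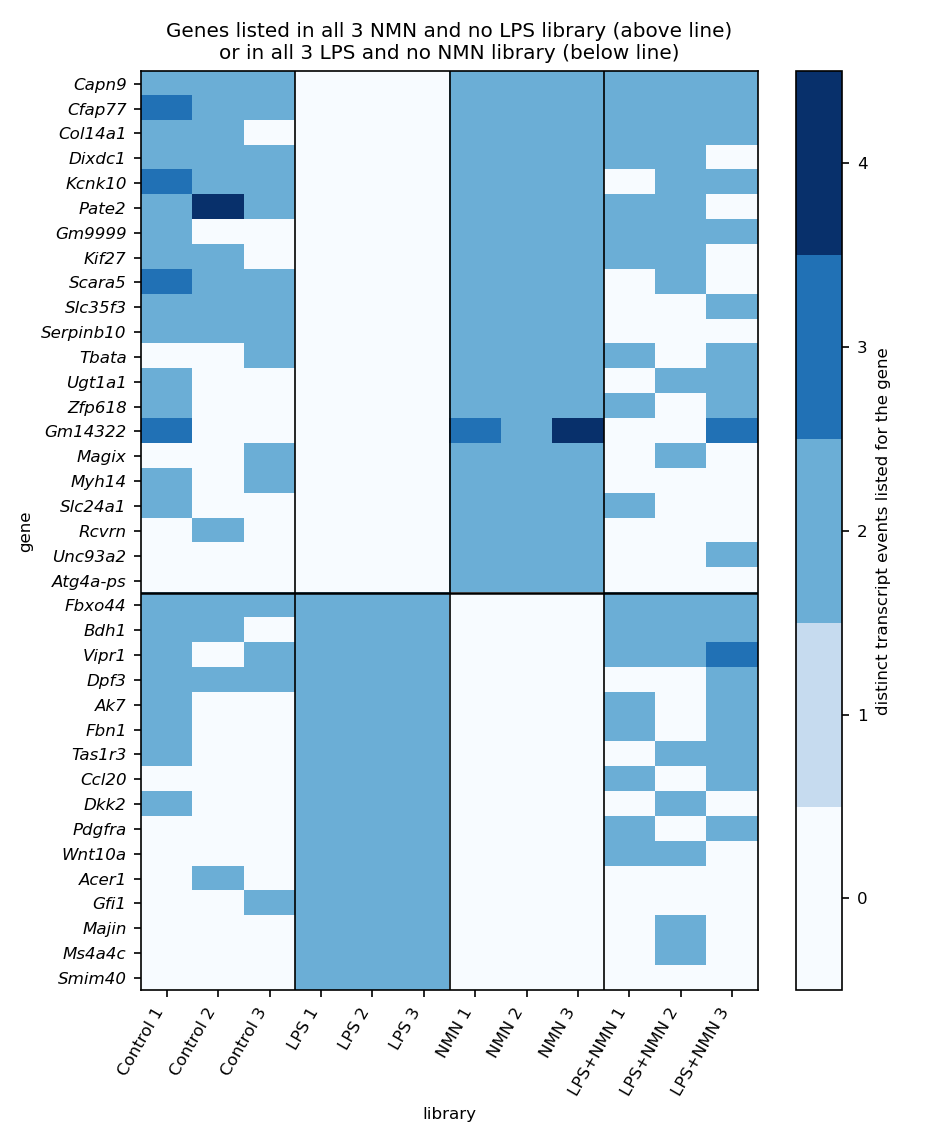
Number of distinct transcript events (colour) listed for each of the 37 set-apart genes (rows) in each of the 12 libraries (columns); the 21 genes above the line were in all 3 NMN and no LPS library, the 16 below in all 3 LPS and no NMN library. Capn9 and Cfap77 are empty only in the LPS columns, Fbxo44 only in the NMN columns.

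Slc7a11, the cystine transporter that feeds glutathione synthesis, parted at both ends of the gene. All 3 NMN libraries listed a first exon of 627 bases that no LPS library listed. It was also in 2 control and all 3 LPS+NMN libraries. All 3 LPS libraries listed 2 last exons, of 7429 bases and of 3375 bases or more, that no other library of the series listed. The inner splice sites of that first exon and of the 7429-base last exon were 70619 bases apart, which is exactly the distance between the first and last exons of the 12-exon coding transcript in GENCODE M21, and the exons have the same lengths there. In that annotation the first exon is at chr3:50442985-50443611 and the last at chr3:50364938-50372366 on GRCm38, on the minus strand. The other LPS last exon has the spacing of an annotated Slc7a11 transcript that retains an intron. The LPS libraries thus listed the last exon of the main transcript and not its first. In them the 1 first exon listed lay 185297 bases from the annotated one, and it was also in 2 control libraries, 1 NMN and 1 LPS+NMN library. The NMN libraries listed the annotated first exon with last exons that lie beyond the end of that transcript, 1 in NMN replicates 1 and 3 and another in NMN replicate 2. A further first exon, of 263 to 319 bases, was listed in NMN replicates 1 and 2 and LPS+NMN replicates 1 and 2, and in no control or LPS library. LPS+NMN replicate 1 listed a last exon 4 bases from the one in the LPS libraries, which the exact match counts as different. The numbers of Slc7a11 events overlapped, at 3, 4 and 3 with LPS and 5, 3 and 2 with NMN (log2 difference -0.05 ± 0.48, SE; adjusted p 1 by limma).

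Because the treatments differ in whether the annotated start of Slc7a11 was listed, the sequence just upstream of it is shown. RefSeq places that start on GRCm38.p6, and the 250 bases before it lie at chr3:50443614-50443863, read here on the minus strand from 5′ to 3′. Capitals mark the letters TGATGNAA on either strand, the core of the amino acid response element through which ATF4 acts on this promoter.
Slc7a11 upstream of the start: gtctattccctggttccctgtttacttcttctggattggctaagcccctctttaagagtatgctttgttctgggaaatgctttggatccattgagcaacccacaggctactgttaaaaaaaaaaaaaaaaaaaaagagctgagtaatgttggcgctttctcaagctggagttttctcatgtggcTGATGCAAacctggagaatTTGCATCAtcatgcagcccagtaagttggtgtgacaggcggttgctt
The motif occurs once on each strand, with its first letter 66 and 47 bases before the start. Of 32851 promoter windows of this length in the RefSeq table, 1134 (3.45%) hold the motif at least once and 13 (0.0396%) at least 2 times. A match describes letters and says nothing of what bound there in these cells.

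Rps12, a protein of the small ribosomal subunit, differed in the LPS libraries from all the others. Its annotated main first exon was listed in all 12 libraries. The last exon with which it pairs in the coding transcripts of GENCODE M21 was listed in all 9 libraries outside the LPS group and in no LPS library, as were 2 further annotated first exons. The 3 LPS libraries listed instead a last exon 404 bases away and 2 alternative exon ends that no other library listed. The number of events stayed alike, at 4, 4 and 4 with LPS and 4, 4 and 5 with NMN. Ribosomal protein genes have many near-identical processed copies, and no source used here says how reads were divided among them, so these ends are uncertain.

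**Figure D3:**
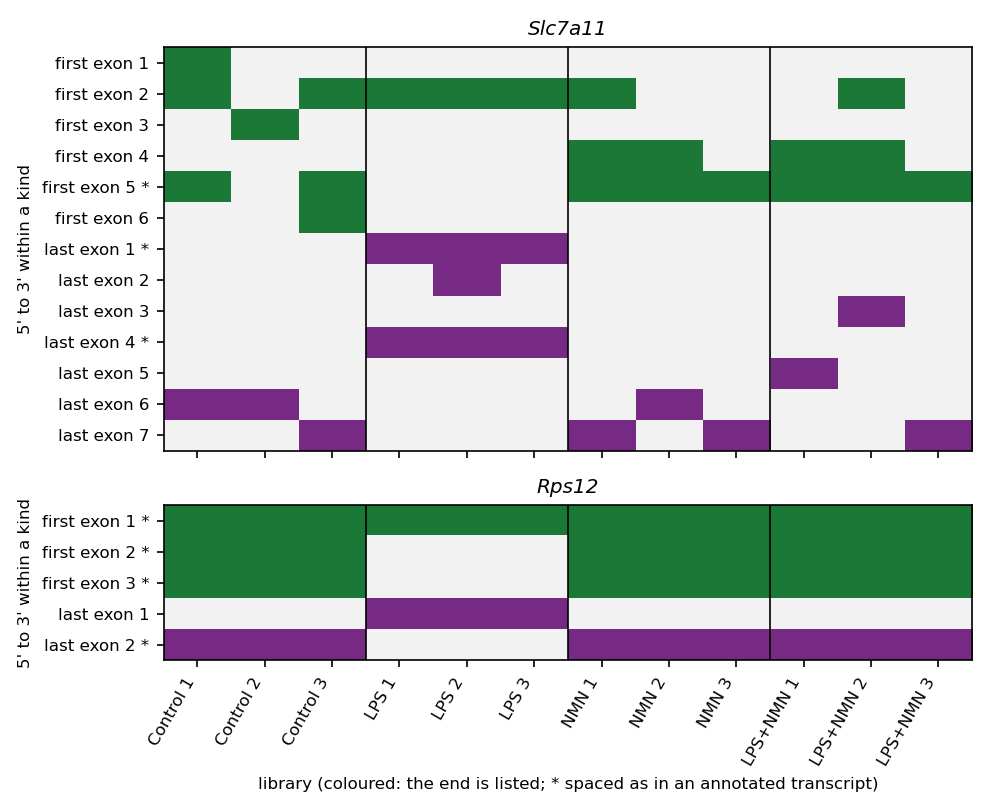
First exons (green) and last exons (purple) of Slc7a11 and Rps12, in 5′ to 3′ order within each kind (rows), listed or not in each of the 12 libraries (columns); an asterisk marks an end spaced as in an annotated transcript. In Slc7a11 the annotated first exon is missing from the 3 LPS columns and the annotated last exons appear only there; in Rps12 the LPS columns lack 2 first exons and the annotated last exon.

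Other genes had set-apart ends without passing the test on event number. Xpo4, a nuclear export receptor, ended in all 6 libraries given NMN at an annotated last exon that no library without NMN listed. All 3 LPS libraries and no NMN library listed 2 other last exons of Xpo4, of which the nearest lay 47042 bases away, and 1 of them was in all 3 control libraries as well. The second of them, in 2 control libraries and no LPS+NMN library, also sat on an annotated transcript end. The events of Xpo4 numbered 7, 7 and 8 with LPS and 5, 3 and 5 with NMN. Rtn2, a reticulon of the endoplasmic reticulum, had 4 set-apart ends and 2, 2 and 3 events with LPS against 2, 2 and 2 with NMN. Lrfn4, a synaptic adhesion protein, and Tbc1d4, a Rab GTPase activator in insulin signalling, had 3 set-apart ends each. In the interleukin-1 family, Il36g had an LPS last exon that was also in all LPS+NMN and no control libraries, and an NMN last exon 6261 bases away. Il1a had an LPS last exon in no other library, but it lay 41 bases from one that NMN libraries listed. Ctsd, the lysosomal protease cathepsin D, had an NMN first exon in no other library, 42 bases from one listed with LPS. Irak4, the kinase next to MyD88, had an NMN last exon in no other library, 72 bases from an LPS one.

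Few set-apart ends lay within 10 bases of an end of the other treatment. For the 128 NMN first exons of genes that LPS libraries also listed, the median distance to the nearest LPS first exon was 782 bases, and 59 were over 1000 bases away. For the 120 LPS first exons in genes NMN libraries listed the median was 1439 bases, and 66 were over 1000 away. Last exons were farther apart, with medians of 2918 bases for 98 NMN and 3517 for 92 LPS ends. Only 3 NMN and 2 LPS first exons, and 6 NMN and 1 LPS last exons, were within 10 bases of an end in the other treatment. By the spacing of exons, 51 of 131 NMN first exons (38.9%) and 29 of 124 LPS first exons (23.4%) sat on an annotated transcript end. Of last exons, 55 of 101 NMN (54.5%) and 48 of 96 LPS (50%) did. An end counted only where exactly 1 pair of ends listed in the series had the spacing of an annotated transcript. Ends whose partner was not listed were thus left out. The share among all listed ends was not computed.

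Exactly skipped exons numbered 79 in all NMN and no LPS libraries, 0.621% of those listed, and 59 in all LPS and no NMN libraries, 0.464%. Here a listing is a line of the skipped-exon type, and the lines used hold the exon in their pattern. Partner lines marked as off were dropped. A missing listing therefore does not tell whether the form with the exon or the form without it was absent. Throughout, an exon called skipped or an intron called kept is one listed as such an event. The NMN exons had a median length of 114 bases and the LPS exons of 110, near the 112 of all 12719 exactly skipped exons in the 6 libraries. Lengths that are multiples of 3, whose loss keeps the reading frame, made up 27 of the 79 (34.2%) and 26 of the 59 (44.1%), beside 42.8% of all. Exons of up to 50 bases made up 6 (7.59%) and 10 (16.9%), beside 8.59% of all. Event positions are not those of GRCm38, where only 1.40% of these exons lie on an annotated exon, so exons were identified by their own length and those of both flanking introns. This matched 64 of the 79 and 44 of the 59 to 1 exon of GENCODE M21, and 43 and 35 of them are wholly coding, 17 in each direction with a length that keeps the frame.

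Of these, 8 coding exons are printed below to show what the transcripts without them lose, from GENCODE M21 transcripts, with the last 3 bases, the exon side of the 5′ splice site, in capitals. The first 5 were skipped in all NMN and no LPS libraries and the last 3 in all LPS and no NMN libraries. Hfe, Xdh and Naip6 are outside the rule for named genes and were chosen after their values were seen.
Trim25, chr11:89015533-89015631, 99 bases: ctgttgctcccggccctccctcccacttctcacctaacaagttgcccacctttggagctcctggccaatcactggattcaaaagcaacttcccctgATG
Atg4b, chr1:93775628-93775700, 73 bases: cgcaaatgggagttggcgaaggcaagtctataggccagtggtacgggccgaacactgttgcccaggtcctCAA
Hfe, chr13:23708028-23708291, 264 bases: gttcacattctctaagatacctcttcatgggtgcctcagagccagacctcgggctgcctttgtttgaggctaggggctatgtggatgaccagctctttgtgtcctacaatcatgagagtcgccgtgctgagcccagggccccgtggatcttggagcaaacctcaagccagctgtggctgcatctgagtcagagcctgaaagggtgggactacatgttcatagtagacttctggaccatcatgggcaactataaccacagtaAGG
Xdh, chr17:73898637-73898687, 51 bases: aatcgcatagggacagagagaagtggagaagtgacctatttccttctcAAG
Naip6, chr13:100294733-100294885, 153 bases: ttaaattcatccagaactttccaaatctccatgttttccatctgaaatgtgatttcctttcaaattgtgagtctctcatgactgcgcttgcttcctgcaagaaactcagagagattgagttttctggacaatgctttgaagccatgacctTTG
Srpk2, chr5:23526790-23526815, 26 bases: tgagtacggctccacagcaaaaaCCT
Fads1, chr19:10194489-10194614, 126 bases: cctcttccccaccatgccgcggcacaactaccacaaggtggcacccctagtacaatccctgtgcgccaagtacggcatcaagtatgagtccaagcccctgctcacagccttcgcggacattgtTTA
Kcnab2, chr4:152400221-152400265, 45 bases: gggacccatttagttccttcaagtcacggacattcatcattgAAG

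Trim25, the ubiquitin ligase that activates the RNA sensor RIG-I, loses 99 bases, which keeps the frame. Its skipping was listed in all 3 control and 1 LPS+NMN libraries, and the gene had 2, 2 and 2 events with LPS and 4, 3 and 3 with NMN (adjusted p 0.634 by limma). For Hfe, a regulator of iron uptake whose loss causes iron overload, skipping of the second exon of 264 bases was listed in every library except the LPS ones. For Xdh, xanthine dehydrogenase, skipping of 51 bases was listed in the NMN libraries and no other. For Naip6, of the family of inflammasome receptors for bacterial proteins, skipping of 153 bases was listed in all 6 libraries given NMN and no other. Atg4b, a protease that prepares LC3 for autophagy, skipped 73 bases, a length that does not keep the frame, in the NMN and 2 LPS+NMN libraries. Srpk2, a kinase that phosphorylates SR splicing proteins, skipped a 26-base exon in the LPS libraries, 1 control and 1 LPS+NMN library, and held 17, 15 and 19 events with LPS and 8, 14 and 11 with NMN. Fads1, a desaturase that makes polyunsaturated fatty acids, skipped 126 bases in the LPS libraries, 1 control and 1 LPS+NMN library. Kcnab2, a subunit of potassium channels, skipped 45 bases in the LPS libraries and 1 control library. In Arrb2, an arrestin that ends receptor signalling, skipping of an exon of 88 bases was listed in all NMN and all LPS+NMN libraries. It was also listed in 2 control libraries and in no LPS library. That exon is annotated as noncoding or untranslated, and Arrb2 had 9, 9 and 9 events with LPS and 11, 12 and 15 with NMN. Flvcr1, a heme exporter, skipped 181 coding bases of its second exon in the NMN and 2 LPS+NMN libraries.

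Retained introns leaned to NMN. The 20 NMN introns lay in 18 genes and had a median length of 262 bases, from 88 to 4782, beside a median of 419 for all 3070 retained introns in the 6 libraries. Ppox, the mitochondrial enzyme that makes protoporphyrin in heme synthesis, had 3 of them, of 928, 294 and 132 bases. None was in a control library, and the gene had 2, 2 and 2 events with LPS and 7, 5 and 5 with NMN. Its groups did not overlap (log2 difference 1.14 ± 0.29, SE; adjusted p 0.621 by limma). Introns of Luc7l2, a U1 snRNP-associated splicing factor, Mecr, a reductase of mitochondrial fatty acid synthesis, and Prdm15, a transcription factor, and 1 of those of Ppox were kept in the NMN libraries and no other. Introns of Adgrl1, a latrophilin adhesion receptor, Izumo4 and Rsrp1 were kept in all 9 libraries outside the LPS group. The 5 LPS introns were in 9430015G10Rik, Rem1, Rev1, Usp35 and Zfp512b. Of the 20 NMN introns, 8 were in all 3 control libraries and 8 in none. The introns of H2-T24, Gm49396 and Sapcd2 were also listed with LPS in the other of the exact and approximate forms, that of Sapcd2 in all 3 LPS libraries. Without LPS replicate 2, the smallest LPS catalogue, the order of the directions turned, with 28 NMN and 33 LPS introns.

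The 86 alternative exon ends set apart towards NMN lay in 44 genes and the 71 towards LPS in 42 genes. Both forms of an exon can be listed, as in Rnf13 and Parvg, so 1 change can count as 2 ends. Rnf13, a ubiquitin ligase of endosomes and lysosomes, had 4 in approximate form in all 6 libraries given NMN and in no control or LPS library. The same 4 ends were listed in exact form in 1 or 2 of the LPS libraries, so that the form and not the end sets the treatments apart. Recql5, a DNA helicase, had 4 in approximate form with NMN, which were also in 1 control and 2 LPS+NMN libraries. Aim2, the inflammasome sensor of cytosolic DNA, had 4 with NMN, and 2 of these and a skipped exon of 811 bases were in no other library. Of those 2, 1 has the same start and end as the skipped exon. Dmpk, a kinase best known from muscle, had 3 with NMN, which were in all 3 control libraries and 2 LPS+NMN libraries, as were a retained intron of 171 bases and a last exon. Parvg, an actin-linked protein of blood cells, had 2 with LPS in every library outside the NMN group, and skipped an exon of 96 bases in the same 9 libraries. Ticam2, the adaptor that links Toll-like receptor 4 to TRIF, had 2 with NMN, in 1 control and 2 LPS+NMN libraries, and 2, 2 and 2 events with LPS against 4, 4 and 4 with NMN. Among the 215 NMN and 157 LPS set-apart splicing events of all kinds, 16 and 14 were listed in at least 1 library of the other treatment in the other form, exact or approximate.

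No gene had a number of events that differed between NMN and LPS past the test. In limma on log2(events + 1) over 11671 genes, 0 genes had more and 0 fewer events with NMN at an adjusted p of 0.05. At an unadjusted p under 0.05 there were 316 with more and 261 with fewer, 4.94% of the genes tested. The smallest adjusted p was 0.0609, for Capn9, Cfap77 and Fbxo44. Without trend and robust moderation limma called 4 and 2, which were Atg4a-ps, Capn9, Cfap77 and Serpinb10 against Fbxo44 and Smim40. Each of these is a set-apart gene with 2 or 0 events in every LPS and NMN library. Their calls are thus not independent of the rule for set-apart genes. Without LPS replicate 1 limma called 10 and 1. Of the 11159 genes listed in all 6 libraries, 192 (1.72%) had more events in each NMN than in any LPS library and 161 (1.44%) had fewer, 353 (3.16%) in all.

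Several genes with wide gaps in event number can be read library by library. Nom1, a nucleolar protein of ribosome assembly, had 6, 6 and 7 events with LPS and 2, 2 and 3 with NMN, and 2 in each control library. Its log2 difference was -1.15 ± 0.19 (SE), with an adjusted p of 0.170 by limma. Slfn4, an interferon-induced Schlafen gene of macrophages, had 16, 17 and 16 events with LPS and 5, 7 and 12 with NMN, beside 13, 12 and 14 in the LPS+NMN libraries and 2, 6 and 4 in the control libraries. Its log2 difference was -1.02 ± 0.31, with an adjusted p of 0.692. Rnf13 had 6, 7 and 6 events with LPS and 15, 14 and 14 with NMN. Its LPS+NMN libraries held 14, 15 and 16 and its control libraries 11, 14 and 7. Tfb2m, a mitochondrial transcription factor, had 4, 3 and 7 with LPS and 13, 13 and 12 with NMN, while the control and LPS+NMN libraries held no more than 8. Both had an adjusted p of 0.337 by limma, with log2 differences of 1.07 ± 0.20 and 1.33 ± 0.25.

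Luc7l2 carried the most set-apart events of any gene in all 6 libraries, 7, all towards NMN. Some of these share an exon boundary and may not be separate changes. The gene had 21, 13 and 16 events with LPS and 35, 31 and 34 with NMN. No other library reached 31. Aim2 had 6, 6 and 14 events with LPS and 16, 15 and 16 with NMN. Gng8, a G protein gamma subunit, had 3, 4 and 18 with LPS and 19, 24 and 20 with NMN, so that LPS replicate 3 lay next to the NMN range. The control libraries held 24, 8 and 11 events of Gng8. Pole2, a DNA polymerase subunit, had 2, 2 and 2 against 6, 7 and 4, and Recql5 2, 2 and 3 against 6, 7 and 6. Lower with NMN were Dnajc27, with 19, 17 and 13 against 7, 6 and 2, Xrcc5, the Ku80 protein of DNA end joining, with 12, 5 and 9 against 3, 3 and 2, and Arid1a, a chromatin-remodelling subunit, with 8, 15 and 7 against 3, 2 and 6. Yars, a tyrosyl tRNA synthetase, had 4, 10 and 9 against 3, 3 and 3, and Parvg 9, 9 and 9 against 5, 5 and 6. In each of these genes the NMN and LPS numbers did not overlap and the adjusted p of limma was above 0.05.

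**Figure D4:**
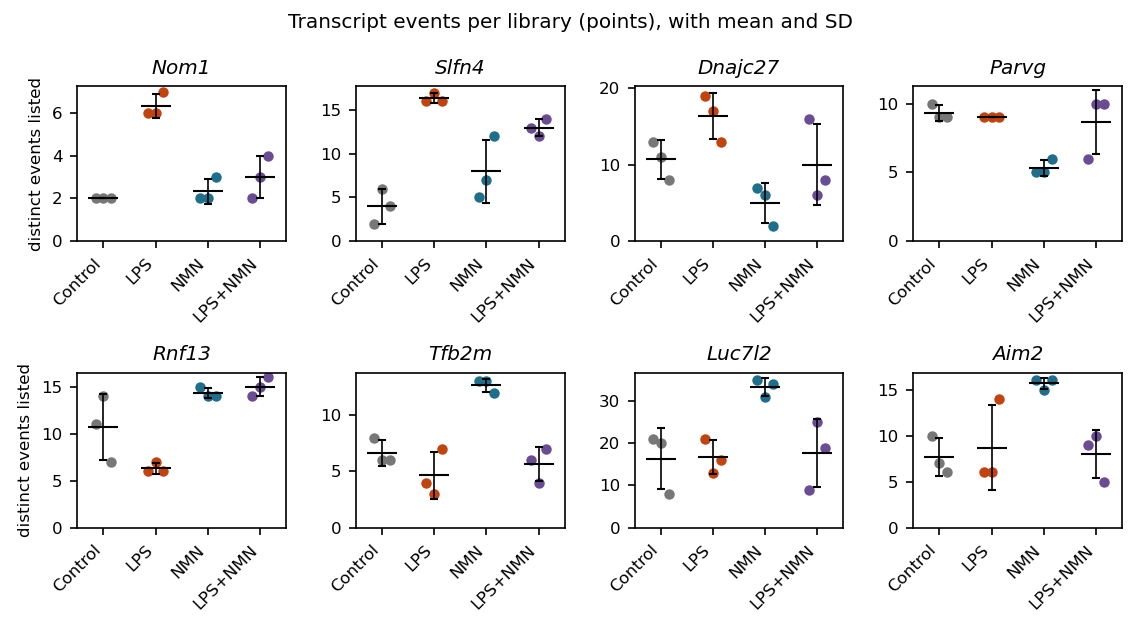
Distinct transcript events listed in each library (points) for 8 genes in the 4 groups, with mean and SD (n = 3). Nom1, Slfn4, Dnajc27 and Parvg had fewer events in every NMN than in any LPS library; Rnf13, Tfb2m, Luc7l2 and Aim2 had more.

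Interferon-response genes were spread over both directions. Of 53 tested, 16 had a higher and 28 a lower mean with NMN, with a median log2 difference of -0.04 beside 0 for all genes tested, of which 4966 were higher and 4643 lower. None passed the adjusted test in limma, and 6 had an unadjusted p under 0.05, beside 577 of all 11671 genes tested (4.94%). Of these, Mx2, an antiviral GTPase, had 8, 6 and 6 events with LPS and 4, 3 and 4 with NMN. Ifih1, the RNA sensor MDA5, had 3 in each LPS and 2 in each NMN library, and Trim30a, an interferon-induced member of the TRIM family, 10, 7 and 7 against 5, 4 and 4. Slfn1 had 2 events in each LPS library and 2, 0 and 0 with NMN. Trim25 ran the other way. A set-apart event was found in 5 of the 57 interferon genes listed in all 6 libraries, 8.77% beside 5.14% of all such genes: Ifi207, Oas1b, Oasl2, Slfn4 and Trim25. In Ifi207, of the DNA-sensing Ifi200 family, a run of skipped exons was listed in all 6 libraries given NMN and no other.

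Toll-like receptor and NF-kB signalling genes had a higher mean with NMN in 13 and a lower mean in 25 of 41 tested, with a median log2 difference of -0.11. At an unadjusted p under 0.05 there were 4 of the 41, 2 with fewer and 2 with more events with NMN, beside 4.94% of all genes tested. Irak2, a kinase of the MyD88 complex, had 11, 10 and 11 events with LPS and 5, 7 and 7 with NMN. Ikbkg, the NEMO subunit of the kinase that frees NF-kB, had 15, 11 and 8 against 7, 8 and 6. Irak4 had 2, 3 and 2 with LPS against 3, 4 and 6, and Ticam2 2, 2 and 2 against 4, 4 and 4. Tlr4 itself, which was not among these 4, had 2, 3 and 3 against 2, 2 and 2. Of 34 cytokine and inflammatory enzyme genes, 9 were higher and 17 lower, and none had an unadjusted p under 0.05. Nos2, the inducible nitric oxide synthase, had 2, 6 and 4 against 2, 2 and 3. Il6 had 3, 4 and 3 against 3, 3 and 3, Tnf 2, 2 and 3 against 2, 2 and 2, and Il1b 2 in each of the 6 libraries.

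No ferroptosis gene passed the adjusted test in limma. Of 28 defence genes tested, 14 had a higher and 11 a lower mean with NMN, with a median of 0.02. Of 22 promoters 8 were higher and 9 lower, with a median of 0. None of the 25 genes of the promoter list that were in all 6 libraries had a set-apart event, beside 5.14% of all such genes. Fads1, which makes polyunsaturated fatty acids and had a set-apart skipped exon, was counted on the defence list. Gpx4 had 3, 2 and 3 events with LPS and 3, 2 and 2 with NMN. Aifm2, the CoQ reductase that guards membranes beside Gpx4, had 3, 3 and 5 against 5, 5 and 6, and Acsl4, which loads polyunsaturated fatty acids into lipids, 3, 9 and 10 against 9, 7 and 8. Gsr, glutathione reductase, had 3 in each LPS and 4 in each NMN library, and Coq10a, a coenzyme Q chaperone of mitochondria, 5, 8 and 5 with LPS against 5, 3 and 3 with NMN. These were the 2 of the 28 defence genes with an unadjusted p under 0.05 by limma, beside 4.94% of all genes tested. Of 21 iron genes, 11 were higher and 7 lower. Tfrc, the transferrin receptor, had 3, 4 and 3 against 3, 3 and 3, and Fth1, a ferritin subunit that stores iron, 4, 4 and 6 against 6, 6 and 6. Of 34 NRF2 targets and glutathione enzymes, 14 were higher and 12 lower.

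No enzyme that makes or uses NAD passed the adjusted test in limma. Of 20 genes of NAD synthesis and salvage, 10 were higher and 6 lower with NMN, with a median of 0.03. None of the 17 listed in all 6 libraries had a set-apart event, beside 5.14% of all such genes. Nampt had 6, 6 and 7 events with LPS and 7, 8 and 7 with NMN, and Nmnat1, the nuclear enzyme that turns NMN into NAD, had 3 in every library. Nmnat3, its mitochondrial counterpart, had 6, 6 and 6 with LPS and 3, 3 and 5 with NMN. Afmid, of the route from tryptophan, had 2, 4 and 2 against 5, 5 and 5. Nmnat3 and Afmid were the 2 of the 20 with an unadjusted p under 0.05 by limma, beside 4.94% of all genes tested. Of 28 NAD consumers, 9 were higher and 15 lower. Parp2 and Parp16 were the 2 of the 28 with an unadjusted p under 0.05 by limma. Sirt1 had 3, 5 and 5 against 3, 2 and 5, Parp1 2, 2 and 4 against 2, 3 and 2, Parp2 8, 10 and 10 against 6, 6 and 8, and Cd38, the NAD glycohydrolase, 2, 2 and 2 against 2, 3 and 2.

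Among 57 splicing factors tested, 27 were higher and 25 lower with NMN, with a median of 0, and set-apart events were in 2 of them, Luc7l2 and Srpk2 (3.51% beside 5.14% of all genes). Antigen presentation genes were higher in 10 and lower in 10 of 29, cell cycle genes in 11 and 16 of 38, respiration and TCA cycle genes in 13 and 11 of 34, and autophagy and lysosome genes in 16 and 18 of 40. Microglia and macrophage markers were higher in 10 and lower in 6 of 21, and disease-associated microglia genes in 10 and 7 of 20. The astrocyte, neuron, oligodendrocyte and lymphocyte lists had 3, 4, 6 and 4 tested members, with 0, 2, 2 and 2 higher and 2, 2, 1 and 1 lower. No member of any of the 20 lists passed the adjusted test in limma.

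The listing of set-apart events in the remaining 6 libraries differed between the directions. Of the 377 LPS events, 138 were in no control library and 44 in all 3, and of the 447 NMN events 107 and 88. In the LPS+NMN libraries the LPS events were also listed less often. Of them, 120 were in no LPS+NMN library and 35 in all 3, and of the NMN events 107 and 66. Among first exons, 62 of 124 LPS ones and 32 of 131 NMN ones were in no control library. In no other library of the series were 58 LPS events (15.4%) and 47 NMN events (10.5%), and in all the other 6 libraries were 14 (3.71%) and 20 (4.47%).

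**Figure D5:**
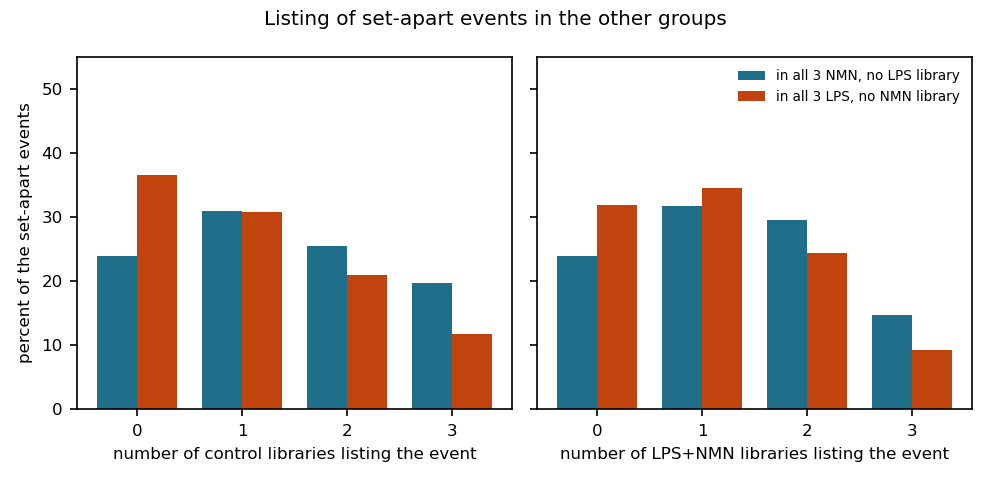
Percent of the 447 NMN (blue) and 377 LPS (orange) set-apart events (vertical axis) by the number of control libraries (left) and LPS+NMN libraries (right) that also listed them. LPS events were most often in no control library, 138 of 377.

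Few events followed 1 agent through all 12 libraries. In all 6 libraries given NMN and none without it were 9 events in 6 genes, 2.01% of the NMN events: the 4 Rnf13 ends in approximate form, last exons of Malt1 and Xpo4, and skipped exons of Ano8, Ifi207 and Naip6. The Rnf13 ends were also listed in exact form in 1 or 2 LPS libraries, as above. Malt1 is the protease of the CARD-BCL10 complex that activates NF-kB. In all 6 libraries given LPS and none without it were 6 events, 1.59% of the LPS events: first exons of Hectd2, Ipo11 and Zmynd8, last exons of Crhbp and Il36g, and a skipped exon of Sfswap, a regulator of splicing. In all 6 libraries without LPS and none with it were 8 events, among them a skipped exon of Ywhaq, and in all 6 without NMN and none with it were 2, last exons of Nans and Xpo4. Genes named in this paragraph that the rule does not name were chosen after their values were seen.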

How the data were processed

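RNA from BV-2 cells had been sequenced in 12 libraries, 3 each of control, LPS, NMN and LPS+NMN, grouped by their titles. Per the file headers, each deposited file is a catalogue of transcript events, with a type, gene, start, end, pattern and strand for each and no counts, so depth is unknown and no counting error can be given. Per the submitters' processing notes, GRCm38, BWA 0.7.12, MACS2 2.1.0 and HOMER were used. No source used here names the program behind the catalogues or the assembly of their positions, which differs from GRCm38.

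Lines of event types marked as off, the partners of the lines used, and repeats were dropped. First and last exons were matched by gene and pattern, which is their inner splice site, and other events by gene, start and end. Event numbers per gene were tested with limma 3.58.1 in R 4.3.3 (trend and robust moderation, 4-group model, 8 residual degrees of freedom) on log2(events + 1), for genes listed in at least 3 of 12 libraries, with Benjamini-Hochberg adjustment. Of 14275 genes, 1500 fell below this filter and 1104 had the same number throughout. Numbers of events per library were compared by exact permutation, as 6 tests. Annotation was GENCODE M21, which held 13939 of the gene names, and RefSeq. The method was tested on simulated data.

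The members and lists were chosen with earlier results of these data known. Named genes were up to 12 set-apart genes per direction by mean event number, up to 12 genes with the most set-apart events and 4 per event class, up to 6 per direction with the widest non-overlapping difference, up to 6 list members with set-apart features, and fixed anchors of ferroptosis, NAD and inflammation. Others are marked as chosen with their values in view, except set-apart genes and list members, which are given in full or by an unadjusted p under 0.05.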

Additional observations from a re-analysis of the deposited data

How the results depend on the processing

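Set-apart counts of events kept within 1.5 times of the values given when only genes listed in all 6 libraries were used, when start and end were matched within 10 bases, when inner splice sites were (chosen after seeing the data) and when exact and approximate forms were merged. Set-apart genes became 40 for NMN and 32 for LPS when a splicing event was needed to count as listed, and 0 and 0 when 3 events were. Leaving out 1 library asks only 2 of a group to list a feature, or only 2 to lack it, and raised the counts: for NMN and LPS, 38 to 57 and 24 to 55 genes, 258 to 432 and 235 to 392 first exons, 197 to 309 and 198 to 279 last exons, 198 to 333 and 152 to 265 skipped exons, 28 to 70 and 7 to 33 retained introns, and 153 to 297 and 118 to 243 alternative exon ends. The difference per library, NMN minus LPS, ran from -30.2 to 64.3 genes, -173 to 311 first exons, -45.3 to 191 last exons, -104 to 431 skipped exons, 39.2 to 147 retained introns and 11.8 to 432 alternative exon ends. Without LPS replicate 2 it was -23.8 genes and -69.7 first exons, and without NMN replicate 2 -2.83 first exons. In limma the genes with more and fewer events were 4 and 2 without trend and robust moderation, 2 and 1 with log2(events + 0.5), and 0 and 1, Asmt, with splicing events alone. Without 1 library they ran from 0 to 10 and 0 to 1, the 10 and 1 without LPS replicate 1, and without LPS replicate 3 there was 1, Gmfb. No filter, a stricter filter, the 2 groups alone and the number of genes as a covariate gave 0 and 0. The replicate block gave 0 and 0, with a smallest adjusted p of 0.188; same-numbered libraries did not deviate together (correlations -0.0138, -0.00329 and -0.0114). With splicing events alone the log2 difference was -1.25 for Rps12, 0.36 for Asah2, -0.47 for Adhfe1, 0.33 for Slc7a11, -0.25 for Tnks2, 0.16 for Tyms and 0.14 for Sirt1, opposite in sign to all events. Leaving out 1 library also turned the sign for some genes, whose log2 differences then ran from -0.076 to 0.069 for Kcnab2, -0.088 to 0.48 for Oas1b, -0.043 to 0.25 for Oasl2, -0.31 to 0.19 for Slc7a11, -0.088 to 0.16 for Tnks2, -0.20 to 0.25 for Tyms, -0.23 to 0.50 for Acsl4 and -0.25 to 0.14 for Parp1. The cause of these turns was not tested. With no counts in the files, what depth limits cannot be given.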

Other observations

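Further genes had set-apart ends in both directions and were chosen after their values were seen. Cst3, the protease inhibitor cystatin C that microglia secrete, had an NMN first exon in all 3 control libraries and 1 LPS+NMN library, and an LPS first exon 479 bases away in no control library and 2 LPS+NMN libraries. Pck2, the mitochondrial phosphoenolpyruvate carboxykinase, had an NMN last exon in 1 control and 1 LPS+NMN library, and an LPS last exon in 2 of each. Mcu, the pore of the mitochondrial calcium uniporter, had an LPS first exon in no other library, and an NMN first exon and last exon each in 1 control and all 3 LPS+NMN libraries. The LPS first exon of Mcu is listed on the opposite strand to the NMN one. Tent2, a poly(A) polymerase, had an LPS last exon in every library outside the NMN group and an NMN last exon 10548 bases away in no other library. Bloc1s1, a subunit of a lysosome biogenesis complex, had an LPS first exon in every library outside the NMN group and an NMN first exon 721 bases away in no other library.

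Signalling genes with single set-apart events included Plcg2, the phospholipase downstream of Trem2, whose LPS last exon was in every library outside the NMN group. Tgfbr1, a TGF-beta receptor, had an NMN last exon in every library outside the LPS group, 661 bases from the nearest LPS one, and Atf2, a stress-activated transcription factor, skipped 2 exons, of 115 and 179 bases, in the same 9 libraries. Ripk2, the kinase of the NOD receptors, had 2 alternative exon ends in the LPS libraries and no other. Fyn, a Src family kinase, skipped an exon of 113 bases alone and as part of a longer run in the LPS libraries and no other. Hgf, hepatocyte growth factor, had an LPS last exon in no other library, 46334 bases from the nearest NMN one. These genes were likewise chosen after their values were seen.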
